A study of Mus musculus with 6 samples.

Results

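The glutathione system and the regulators of NRF2 were examined in mouse bone marrow-derived macrophages through 10 genes: Gclc, Gclm, Gss, Gsr, Gpx1, Gpx4, Gstm1, Nqo1, Nfe2l2 and Keap1. They were picked out of the deposited table by gene symbol, and all 10 were found among its 55401 genes. Bone marrow of C57BL/6 mice was grown for 7 days in 40 ng/mL M-CSF, the growth factor that turns marrow cells into macrophages, with 10% fetal bovine serum. RNA was sequenced from 3 libraries labelled wild type (WT) and 3 labelled Mettl3-/- (KO). Mettl3 encodes the enzyme subunit that places the m6A mark on messenger RNA, and the series asks how the transcripts of the KO cells differ from WT. The growth is described as coming before a treatment, which no label names, and neither how the allele was made nor which cells carry it is given in the sources used here. Nothing in the labels says that the replicates are separate mice or cultures, so p-values here measure the spread of these libraries alone, which may be technical.

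Glutathione is a small thiol peptide that cells use to reduce peroxides and to tag reactive molecules. Its synthesis starts with glutamate-cysteine ligase, made of a catalytic subunit (Gclc) and a modifier subunit (Gclm), and is completed by glutathione synthetase (Gss). Glutathione peroxidases (Gpx1, Gpx4) oxidise it while they destroy peroxides, glutathione reductase (Gsr) returns it to the reduced form with NADPH, and glutathione transferases (Gstm1) join it to electrophiles. NRF2, the product of Nfe2l2, is a transcription factor that KEAP1 (Keap1) holds at a low level by marking it for degradation. Electrophiles and oxidants modify KEAP1 and let NRF2 build up, after which it switches on genes such as Nqo1, a quinone reductase. In macrophages the system copes with the oxidants made during defence and with iron and heme from engulfed red cells. Because NRF2 is set mainly by protein turnover, its transcript level is a poor guide to its activity.

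The 6 libraries held 67280390 to 77997742 estimated counts, with 19476 to 19825 genes above a count of 0. Over the 8908 genes with higher counts, libraries of one group correlated at 0.984 to 0.988 on log2 counts scaled to library size. Those of different groups correlated at 0.977 to 0.98. The targeted gene did not follow the label: Mettl3 read 2.62, 2.91 and 2.26 FPKM in WT, against 2.5, 2.56 and 2.93 FPKM in labelled KO (log2 fold change 0.02, SE 0.11, adjusted p = 0.93 in edgeR). FPKM is the number of mapped fragments scaled by transcript length and library size. The values are totals per gene, which do not show whether a part of Mettl3 is missing, and Tox4 overlaps it on the other strand. Directions are therefore given for the libraries labelled KO. Of 8 macrophage markers, all tested, Csf1r, Mertk and Fcgr1 rose and Adgre1 and Lyz2 fell. Their summed level was 16495 to 16842 FPKM in WT, against 8523 to 8616 FPKM in labelled KO, most of it Lyz2 (14189 and 6012 FPKM). Neutrophil and granule markers summed to 111 to 116 FPKM in WT, against 126 to 136 FPKM in labelled KO, with Mpo and Mmp8 higher among 7 tested of 9. Markers of dendritic cells (at most 1.9 FPKM summed), T and NK cells (at most 12.1), B and plasma cells (at most 5.36), mast cells and basophils (at most 0.351) and stromal and endothelial cells (at most 6.53) were low, with Dcn higher and Pecam1 lower the 2 called among them, and the erythroid genes Hba-a1, Hbb-bs and Hbb-bt were listed at a count of 0 in all 6 libraries. The part that these marker differences play in the values below was not tested.

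Glutathione reductase rose, Gstm1 and Nqo1 fell, and the other 7 genes did not pass the test. Over the transcriptome, 2060 of 16256 tested genes were called at an adjusted p under 0.05 (12.7%), 1139 with more RNA in labelled KO (7.01%) and 921 with less (5.67%). Of the 10 genes, all of which passed the filter on low counts, 3 were called, 1 higher and 2 lower. The FPKM of the groups did not overlap for 4 of the 10 (Gsr, Gpx4, Gstm1 and Nqo1), a share close to the 33.8% of all tested genes. Their median log2 fold change was -0.05 against -0.00 for all tested genes. Their median absolute log2 fold change was 0.09, against 0.18 for all tested genes. RNA was taken from whole cultures, where a lower share of cells that express a gene and less of its RNA per cell cannot be told apart.

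**Figure D1:**
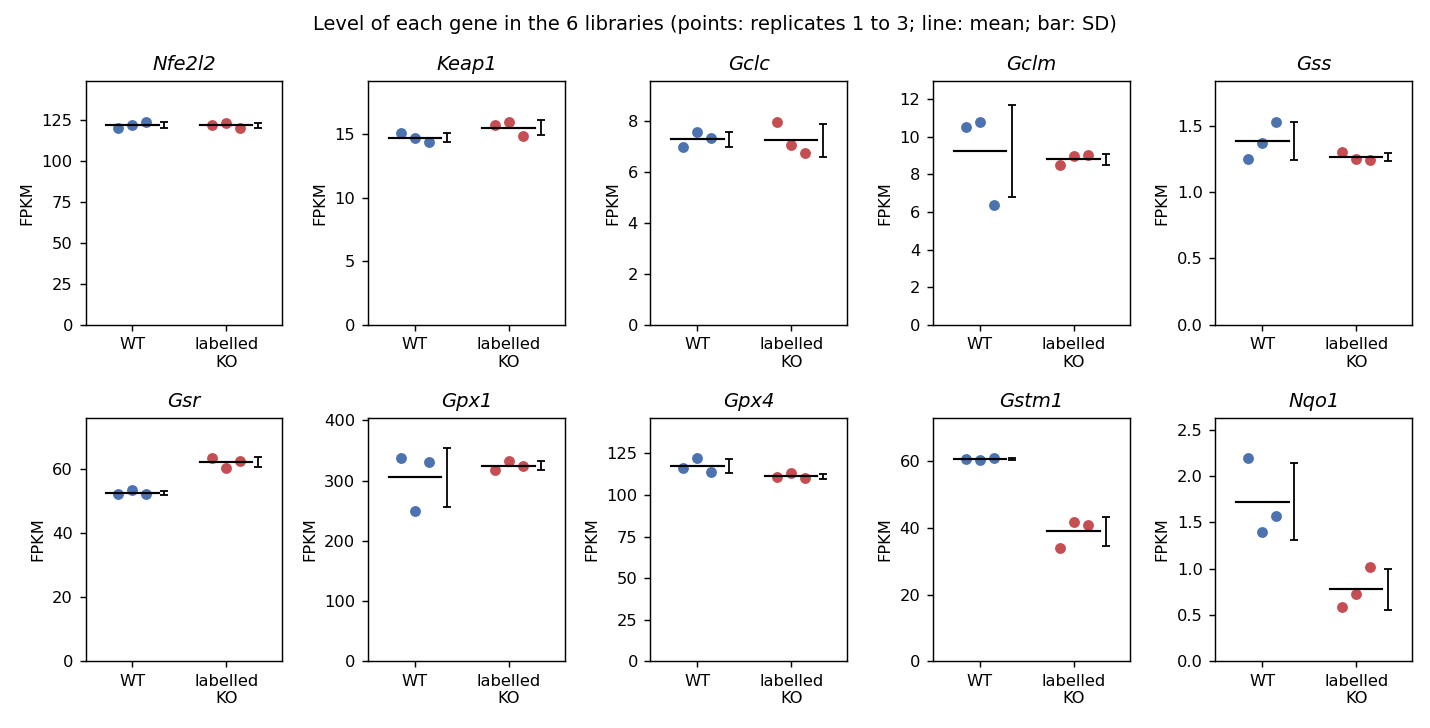
FPKM of the 10 genes in each library, one panel per gene, with points for replicates 1 to 3 of WT (blue) and labelled KO (red), a line at the mean and a bar of 1 SD beside it; every axis starts at 0. Gsr sits higher in all 3 libraries labelled KO (60.3 to 63.3) than in WT (52.1 to 53.3), Gstm1 and Nqo1 sit lower, and Gclm has 1 low WT library (6.39).

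The regulators Nfe2l2 and Keap1 were both expressed and neither was called. Nfe2l2 (ENSMUSG00000015839, chromosome 2, 75675513 to 75704641, minus strand of mm10) read 120, 122 and 124 FPKM in WT, against 122, 123 and 120 FPKM in labelled KO, on 34473 to 40063 estimated counts per library. The ranges of the groups overlap almost fully, and the means were 122 ± 2.03 and 122 ± 1.23 FPKM (SD, n = 3 each). Its log2 fold change was -0.02 (SE 0.019, adjusted p = 0.62 in edgeR), and the 95% limits, -0.07 and 0.03, leave room for a ratio between 0.956 and 1.02. With an FPKM above 98% of tested genes, the NRF2 transcript was abundant in these macrophages, and the interval for its change was the narrowest of the 10.

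Keap1 (ENSMUSG00000003308, chromosome 9, 21229730 to 21239361, minus strand) stood at 15.1, 14.7 and 14.4 FPKM in WT, against 15.7, 16 and 14.9 FPKM in labelled KO. The lowest labelled KO library lay within the WT range. The log2 fold change was 0.06 (SE 0.041, adjusted p = 0.389 in edgeR), with a ratio between 0.977 and 1.12 at the 95% limits. Keap1 shares 510 of its exonic bases (10.9%) with Gm16754 on the opposite strand, which read 1.1, 0.784 and 0.0623 FPKM in WT, against 1, 0.973 and 1.06 FPKM in labelled KO. Within a library, the ratio of Keap1 to Nfe2l2 was 0.126, 0.121 and 0.116 in WT and 0.129, 0.131 and 0.124 in labelled KO. These ratios overlap, and a two-sided exact permutation test gave p = 0.2 (0.6 adjusted over the 3 ratios tested), where 3 against 3 cannot go below 0.1.

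Around these regulators, 14 partners and relatives of NRF2 and KEAP1 were tested, Nfe2l2 and Keap1 included. None rose and 2 fell in edgeR, DESeq2 and limma alike, with a median log2 fold change of -0.08. That count stands beside 12.7% of all tested genes called by edgeR. With the replicate block, or with any 1 library left out, edgeR called 1 gene of the list. At an unadjusted p under 0.05 edgeR had 1 higher and 3 lower. Sqstm1 encodes p62, an autophagy receptor that binds KEAP1. It read 187, 186 and 188 FPKM in WT, against 155, 157 and 151 FPKM in labelled KO, a log2 fold change of -0.29 (adjusted p = 0.00032 in edgeR), with every labelled KO library below every WT library. Rbx1, the RING subunit of the ubiquitin ligase that KEAP1 feeds, went from 10.8 to 9.75 FPKM (log2 fold change -0.17, adjusted p = 0.0446 in edgeR). Leaving out any library removed that call (adjusted p from 0.0684 to 0.129 in edgeR).

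Genes of glutathione synthesis were not called: of Gclc, Gclm and Gss, 0 of 3 passed edgeR's test, 0 had an unadjusted p under 0.05, and DESeq2 and limma also called 0. Gclc (ENSMUSG00000032350, chromosome 9, 77754535 to 77794485, plus strand), the catalytic subunit of the first and rate-limiting step, read 6.98, 7.56 and 7.33 FPKM in WT, against 7.98, 7.05 and 6.73 FPKM in labelled KO. KO replicate 1 was the highest of the 6 libraries and KO replicate 3 the lowest, so the labelled KO range encloses that of WT. The log2 fold change was -0.02 (SE 0.075, adjusted p = 0.88 in edgeR), with a ratio between 0.868 and 1.11 at the 95% limits.

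Gclm (ENSMUSG00000028124, chromosome 3, 122245557 to 122270732, plus strand), whose product raises the activity of Gclc's, read 10.5, 10.8 and 6.39 FPKM in WT, against 8.47, 8.95 and 9 FPKM in labelled KO. The libraries labelled KO lie together between WT replicate 3 and the other WT libraries. The means were 9.23 ± 2.47 and 8.81 ± 0.296 FPKM (SD, n = 3 each) and the log2 fold change -0.08 (SE 0.19, adjusted p = 0.836 in edgeR). Its 95% limits, a ratio of 0.687 to 1.3, are wide for a gene with 3091 to 5215 estimated counts per library. A single library decided the call: without WT replicate 3, Gclm was lower in labelled KO by edgeR (log2 fold change -0.29, adjusted p = 0.0259), and without WT replicate 1 or 2 the sign turned (0.02 and 0.05). Of the 50-base stretches of Gclm, 4.58% also occur in other annotated genes (146 genes), among them Ppia and Gm10123. Ppia and Gm10123 read 132 and 182 FPKM in WT, against 123 and 161 FPKM in labelled KO. How the counting split such reads is not given in the sources used here. Gclm also shares at most 540 exonic bases (8.58%, summed gene by gene) with Gm17494 on the opposite strand and Gm6061 on the same strand. Gm17494 read 10.5, 14.4 and 14.4 FPKM in WT, against 3.58, 7.08 and 9.85 FPKM in labelled KO (log2 fold change -0.96, adjusted p = 0.141 in edgeR). WT replicate 3, low for Gclm, was thus not low for Gm17494. The strand setting of the counting is not given in the sources used here, and without it reads of such overlapping genes cannot be told apart.

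The balance of both ligase subunits within a library also depended on that sample. Gclm over Gclc was 1.5, 1.43 and 0.871 in WT and 1.06, 1.27 and 1.34 in labelled KO, so Gclc exceeded Gclm in WT replicate 3 and in no other library. The log2 ratio differed by -0.02 between the groups (exact permutation p = 1).

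Gss (ENSMUSG00000027610, chromosome 2, 155563181 to 155592810, minus strand), which adds glycine in the last step, had the lowest level of the synthesis genes, at 1.25, 1.37 and 1.53 FPKM in WT, against 1.3, 1.25 and 1.24 FPKM in labelled KO. The labelled KO libraries sit at the low end of the WT range or just below it. Its log2 fold change was -0.15 (SE 0.096, adjusted p = 0.394 in edgeR), with 562 to 699 estimated counts behind each value. Gss overlaps Acss2, an acetyl-CoA synthetase gene on the opposite strand, and 2 antisense genes (Gssos1 and Gssos2). Summed gene by gene, the overlap covers at most 1102 exonic bases (18.6%). Acss2 read 1.19, 1.32 and 1.18 FPKM in WT, against 0.691, 0.679 and 1.01 FPKM in labelled KO (log2 fold change -0.64, adjusted p = 0.0558 in edgeR), a level close to that of Gss itself, and the antisense genes were listed at a count of 0.

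Genes that supply cysteine for synthesis or break glutathione down moved in both directions. Of 11 such genes 9 were tested, 2 rose and 2 fell, and the median log2 fold change was 0.12. Slc7a11, the exchanger subunit that brings in cystine, read 3.78, 3.83 and 3.84 FPKM in WT, against 2.47, 2.28 and 2.26 FPKM in labelled KO. All 3 labelled KO libraries lay well below WT, with a log2 fold change of -0.72 (adjusted p = 0.000314 in edgeR). Its partner chain Slc3a2 was not called (log2 fold change -0.10, adjusted p = 0.059 in edgeR). Dpep2, a membrane dipeptidase, rose from 40.1 to 48.9 FPKM (log2 fold change 0.27, adjusted p = 0.00144 in edgeR).

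Other calls in the same list were lost when 1 library was left out. Chac2, which cleaves glutathione in the cytosol, rose from 2.69 to 4.1 FPKM (log2 fold change 0.58, adjusted p = 0.0168 in edgeR). Omitting WT replicate 1, WT replicate 3 or KO replicate 2 removed this call (adjusted p from 0.0586 to 0.061 in edgeR). Oplah, the 5-oxoprolinase of glutathione turnover, fell from 0.737 to 0.529 FPKM (log2 fold change -0.49, adjusted p = 0.0452 in edgeR), which did not pass when any 1 library was omitted (adjusted p from 0.057 to 0.132 in edgeR).

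Glutathione reductase was the 1 gene of the 10 that rose. Gsr (ENSMUSG00000031584, chromosome 8, 33652523 to 33698163, plus strand) read 52.3, 53.3 and 52.1 FPKM in WT, against 63.3, 60.3 and 62.5 FPKM in labelled KO. The lowest labelled KO library was above the highest WT library, and replicates within each group lay close together. The means were 52.6 ± 0.659 and 62 ± 1.55 FPKM (SD, n = 3 each), a ratio of 1.18, on 10906 to 15096 estimated counts. The log2 fold change was 0.22 (SE 0.029, adjusted p = 0.00463 in edgeR), with a ratio of 1.11 to 1.22 at the 95% limits. Gsr was called without any 1 of the 6 libraries (adjusted p from 0.00976 to 0.0242 in edgeR). By exact permutation, two-sided, p was 0.1, the smallest that 3 against 3 allows, and Gsr shares no exonic base with another annotated gene.

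Among genes around the supply of NADPH, which glutathione reductase consumes, those called went the other way. Of 10 tested genes of NADPH supply and glutathione reduction, Gsr rose and 4 others fell, with a median log2 fold change of -0.19. Me1, the cytosolic malic enzyme, read 1.22, 1.15 and 1.18 FPKM in WT, against 0.439, 0.459 and 0.467 FPKM in labelled KO, with a wide gap between the groups (log2 fold change -1.40, adjusted p = 0.00059 in edgeR). Idh1, the cytosolic NADP-dependent isocitrate dehydrogenase, fell from 89.5 to 72.1 FPKM (log2 fold change -0.33, adjusted p = 0.0015 in edgeR). Taldo1 and Tkt, of the non-oxidative pentose phosphate pathway, fell from 104 to 87.4 and from 35 to 32 FPKM (adjusted p = 0.00363 and 0.00926 in edgeR). The oxidative-branch dehydrogenases G6pdx and Pgd were not called, with log2 fold changes of -0.09 and 0.07 (adjusted p = 0.0512 and 0.105 in edgeR).

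Gpx1 and Gpx4 encode selenoproteins: the amino acid at the active site is selenocysteine, which is read from a UGA codon that would otherwise stop translation. Their codons are shown with that of Gpx3, the secreted peroxidase of the same family, because the 3 transcripts share this feature and Gpx3 alone of them was called. In each line 30 coding bases stand on either side of the selenocysteine codon, which is in capitals. The annotation is GENCODE M21 on GRCm38.
Gpx1: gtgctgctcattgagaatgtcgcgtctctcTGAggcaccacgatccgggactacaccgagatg
Gpx4: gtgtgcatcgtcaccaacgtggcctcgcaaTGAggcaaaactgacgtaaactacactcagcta
Gpx3: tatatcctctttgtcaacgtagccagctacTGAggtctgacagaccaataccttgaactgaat
The codon is number 47 of the Gpx1 reading frame (chr9:108339451-108339453, plus strand), number 129 of the Gpx4 frame used here (chr10:80054737-80054739, plus strand) and number 73 of the Gpx3 frame (chr11:54907256-54907258, plus strand).

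Gpx1 was the most abundant of the 10 transcripts and was not called. Gpx1 (ENSMUSG00000063856, chromosome 9, 108338903 to 108340343, plus strand), the cytosolic peroxidase that reduces hydrogen peroxide, read 337, 249 and 331 FPKM in WT, against 317, 333 and 325 FPKM in labelled KO. WT replicate 2 was the low library, and the other 5 fell between 317 and 337 FPKM. The log2 fold change was 0.07 (SE 0.11, adjusted p = 0.751 in edgeR), with a ratio between 0.873 and 1.26 at the 95% limits, and it turned to -0.06 without WT replicate 2. Each value rests on 27519 to 41043 estimated counts, so counting error is small beside the spread of the WT libraries.

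Gpx4 (ENSMUSG00000075706, chromosome 10, 80047166 to 80056439, plus strand), the peroxidase that reduces lipid peroxides in membranes and thereby holds back ferroptosis, read 116, 122 and 114 FPKM in WT, against 111, 113 and 110 FPKM in labelled KO. The groups did not overlap, but by a narrow margin: the highest labelled KO library stood at 113 FPKM and the lowest WT library at 114. The log2 fold change was -0.09 (SE 0.031), with a ratio of 0.892 to 0.989 at the 95% limits. It did not pass after adjustment over all genes (adjusted p = 0.122 in edgeR, unadjusted 0.0246), nor without any 1 library (adjusted p from 0.128 to 0.25 in edgeR).

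Reads of Gpx4 can be shared with near copies. Of its 50-base stretches, 34.7% also occur in other annotated genes, mostly the pseudogene Gpx4-ps2. The table lists Gpx4-ps2 at 42.2, 36.2 and 40.2 FPKM in WT, against 31, 36.6 and 29.9 FPKM in labelled KO (log2 fold change -0.30, adjusted p = 0.102 in edgeR). How the counting split such reads is not given in the sources used here, so the Gpx4 value is uncertain. Gpx4 over Gpx1 was 0.343, 0.488 and 0.345 in WT and 0.351, 0.338 and 0.34 in labelled KO. WT replicate 2, with the lowest Gpx1 and the highest Gpx4 of the 6 libraries, stood apart, and the log2 ratio differed by -0.17 between the groups (exact permutation p = 0.5, 0.75 adjusted over 3 ratios).

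Of the 8 peroxidase genes listed, 5 were tested and Gpx3 fell, while Gpx1, Gpx4, Gpx7 and Gpx8 did not pass. Gpx3 read 43.3, 48.5 and 44 FPKM in WT, against 26.1, 26.8 and 26.9 FPKM in labelled KO, every labelled KO library far below WT (log2 fold change -0.78, adjusted p = 0.000361 in edgeR). Gpx2 and Gpx5 were listed at a count of 0 in all libraries. None of the 7 genes for inserting or recycling selenocysteine was called by edgeR, DESeq2 or limma, with a median log2 fold change of -0.08. At an unadjusted p under 0.05 edgeR had 1 higher, Sephs2, and 1 lower, Trnau1ap. Sephs2, which makes the selenium donor, was at 30 FPKM in WT, against 32.4 FPKM in labelled KO (log2 fold change 0.09, adjusted p = 0.15 in edgeR). Scly, which frees selenium from selenocysteine, was at 6.87 and 6.84 FPKM (log2 fold change -0.02, adjusted p = 0.839 in edgeR). Glutaredoxins and glyoxalases, which also work with glutathione, had no edgeR call among 6 tested genes: Glrx was at 17.3 FPKM in WT, against 16.4 FPKM in labelled KO (adjusted p = 0.167 in edgeR) and Hagh at 15.3 and 15.2 FPKM (adjusted p = 0.818 in edgeR). At an unadjusted p under 0.05 edgeR had Glrx, lower, and Glrx5, higher, and DESeq2 called Glrx5 while limma called 0.

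Gstm1 fell by a larger step than Gsr rose. Gstm1 (ENSMUSG00000058135, chromosome 3, 108012255 to 108017973, minus strand), a mu-class transferase that conjugates glutathione to electrophiles, read 60.4, 60.2 and 60.7 FPKM in WT, against 34, 41.8 and 40.9 FPKM in labelled KO. All 3 labelled KO libraries were far below WT, and KO replicate 1 was the lowest. The means were 60.4 ± 0.278 and 38.9 ± 4.25 FPKM (SD, n = 3 each), a ratio of 0.644, on 4227 to 6881 estimated counts. The log2 fold change was -0.65 (SE 0.079, adjusted p = 0.00378 in edgeR), with a ratio of 0.558 to 0.727 at the 95% limits. The gene was called without any 1 library (adjusted p from 0.00184 to 0.0187 in edgeR), and the exact permutation p was 0.1, the smallest possible.

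Part of the Gstm1 sequence is shared, since 18.9% of its 50-base stretches occur in 5 other annotated genes. The pseudogene Gstm2-ps1 was listed at 2.91, 3.88 and 3.03 FPKM in WT, against 1.87, 1.77 and 2.19 FPKM in labelled KO, far below Gstm1, and was called lower (log2 fold change -0.76, adjusted p = 0.0433 in edgeR; lost without any 1 library, adjusted p from 0.0721 to 0.129 in edgeR). The paralog Gstm3 was at 0.255 FPKM in WT, against 0.291 FPKM in labelled KO on 4 to 43 counts. Gm8834, which also shares sequence with Gstm1, was at 1.52 FPKM in WT, against 0.711 FPKM in labelled KO on 26 to 83 counts. Its log2 fold change was -1.10 (adjusted p = 0.0646 in edgeR). The part of shared reads in these values was not tested.

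Among 26 transferase genes, 20 were tested, and Gstm1 and Gsta3 fell, with a median log2 fold change of -0.19. None rose by edgeR. At an unadjusted p under 0.05 edgeR had 1 higher, Mgst1, and 4 lower. DESeq2 called Mgst1 higher and 3 lower, Gstm2 besides Gstm1 and Gsta3, while limma called Mgst1 higher and 2 lower. Gsta3, an alpha-class transferase with close paralogs, read 1.79, 2.02 and 1.75 FPKM in WT, against 0.601, 0.884 and 0.591 FPKM in labelled KO (log2 fold change -1.43, adjusted p = 0.0041 in edgeR). Like Gstm1, it was lower in 3 of 3 libraries labelled KO than in any WT library. Gstm2, with 20 to 126 estimated counts per library, had a log2 fold change of -1.45 (SE 0.42, adjusted p = 0.0762 in edgeR). Mgst1, an abundant membrane-bound transferase, was at 87.3 FPKM in WT, against 96.3 FPKM in labelled KO (adjusted p = 0.0748 in edgeR).

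Nqo1 (ENSMUSG00000003849, chromosome 8, 107388225 to 107403206, minus strand), a quinone reductase widely used as a readout of NRF2, was barely expressed and fell. It read 2.19, 1.4 and 1.57 FPKM in WT, against 0.582, 0.73 and 1.02 FPKM in labelled KO. The groups did not overlap, and replicates were spread widely, with WT replicate 1 and KO replicate 3 the highest of their groups. The means were 1.72 ± 0.418 and 0.779 ± 0.225 FPKM (SD, n = 3 each), a ratio of 0.452, and the log2 fold change was -1.15 (SE 0.27, adjusted p = 0.0412 in edgeR). Only 77 to 258 estimated counts per library stood behind these values, and the 95% limits span a ratio of 0.286 to 0.71. The call was lost without any 1 library except KO replicate 3 (adjusted p from 0.0679 to 0.125 in edgeR), with log2 fold changes of -1.40 to -0.94 over the 6 fits, and the exact permutation p was 0.1.

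**Figure D2:**
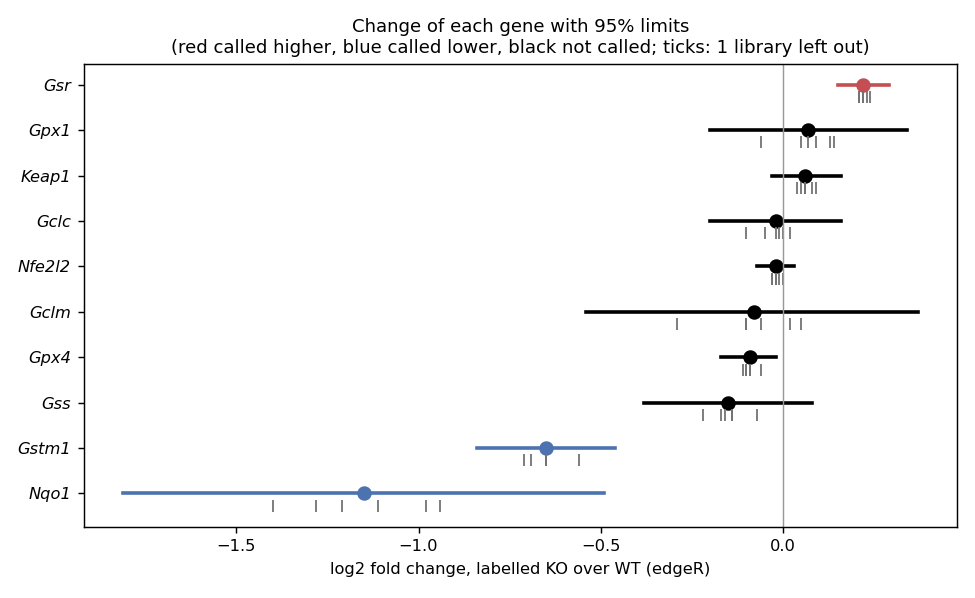
Change in labelled KO against WT, as log2 from edgeR, for the 10 genes (points) with 95% limits (bars) and the value with each library left out (ticks); red is called higher, blue called lower and black not called. Limits are narrowest for Nfe2l2 (-0.07 to 0.03) and widest for Nqo1 (-1.81 to -0.49), and the ticks of Gclc, Gclm and Gpx1 fall on both sides of 0.

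Nqo1 stood in a list of 24 NRF2 targets outside the glutathione system, all tested, of which 1 rose (Cbr3, a carbonyl reductase) and 11 fell, with a median log2 fold change of -0.28 and 20 values below 0. An overlapping list of NRF2 genes was known to be lower in these libraries when this one was drawn up, so its direction is not independent evidence. Genes of the glutathione system are not in this list: Gclc and Gclm were not called, Gsr rose and Gstm1 fell. Cat, the catalase that splits hydrogen peroxide, read 115, 116 and 119 FPKM in WT, against 73, 71.3 and 73.9 FPKM in labelled KO (log2 fold change -0.70, adjusted p = 3.14e-05 in edgeR). The groups are widely separated, and replicates lie close together in each.

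Prdx1, a peroxiredoxin that reduces peroxides without glutathione, went from 373 to 289 FPKM (log2 fold change -0.39, adjusted p = 3.31e-05 in edgeR). Hmox1, the heme oxygenase that opens the heme ring, went from 492 to 403 FPKM (log2 fold change -0.30, adjusted p = 0.000101 in edgeR). Ftl1, the ferritin light chain that stores iron, went from 4222 to 3740 FPKM (log2 fold change -0.19, adjusted p = 0.000109 in edgeR). These genes were lower in all 3 libraries labelled KO, and Prdx1 and Ftl1 have processed pseudogenes that can share reads. With 1 library left out, 8 to 10 of the 24 genes were called. The calls of Cbr3 and Ephx1 did not pass in any of these 6 fits (adjusted p from 0.0744 to 0.12 and from 0.065 to 0.109 in edgeR). That of Ptgr1 did not pass in 5 of them (adjusted p up to 0.0684 in edgeR). Blvra lost its call without KO replicate 1 or KO replicate 3 (adjusted p up to 0.06 in edgeR).

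**Figure D3:**
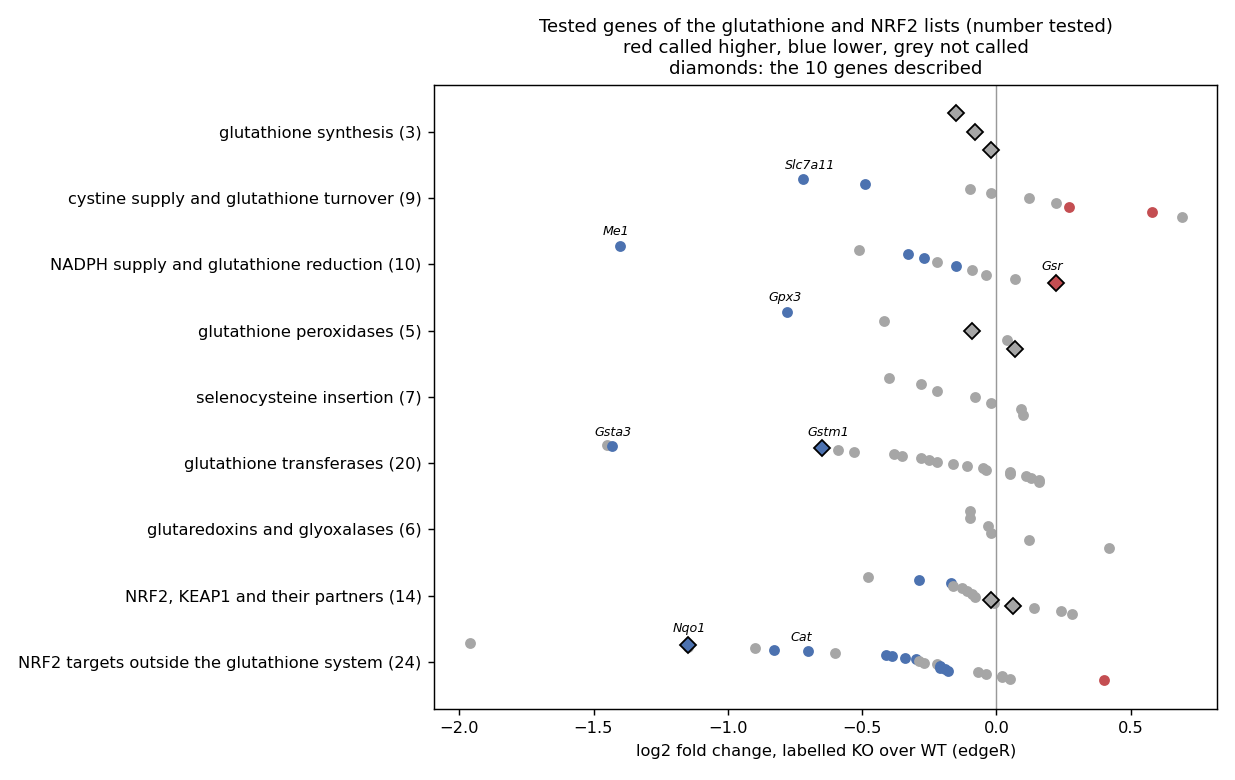
Change in labelled KO against WT, as log2 from edgeR, for every tested gene of the 9 lists, 1 row per list with the number tested in brackets; red is called higher, blue called lower, grey not called, and diamonds mark the 10 genes described. Synthesis genes lie close to 0, Gsr (0.22) lies opposite to Me1 and the other called genes of its list, and 11 of 24 NRF2 targets are called lower against 1 higher.

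Over the 9 lists, 98 of 109 genes were tested, 4 were called higher and 22 lower (26.5% called, against 12.7% of all tested genes). The list of NRF2 targets supplied 12 of these 26 calls. The lists were chosen with earlier results of these data known, so their share is not independent evidence of an excess. Leaving the 10 genes aside, 88 were tested, 3 were called higher and 20 lower, with a median log2 fold change of -0.14.

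The order of the 10 levels within a library, which FPKM allows because it is scaled by transcript length, took 4 forms over the 6 libraries. Gpx1 came first in all 6. Nfe2l2 and Gpx4 followed, and they changed places in WT replicate 2. Their ranges overlap in WT (120 to 124 and 114 to 122 FPKM) but not in labelled KO (120 to 123 and 110 to 113 FPKM). Gstm1 stood above Gsr in the 3 WT libraries and Gsr above Gstm1 in the 3 labelled KO libraries. At the low end, Nqo1 stood above Gss in all WT libraries and below it in all those labelled KO. Keap1 stood between these groups, above Gclm and Gclc, in every library. Set against all tested genes, the mean FPKM ranged from the 36.5th percentile (Nqo1) and the 37.4th (Gss) to the 99.3rd (Gpx1).

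**Figure D4:**
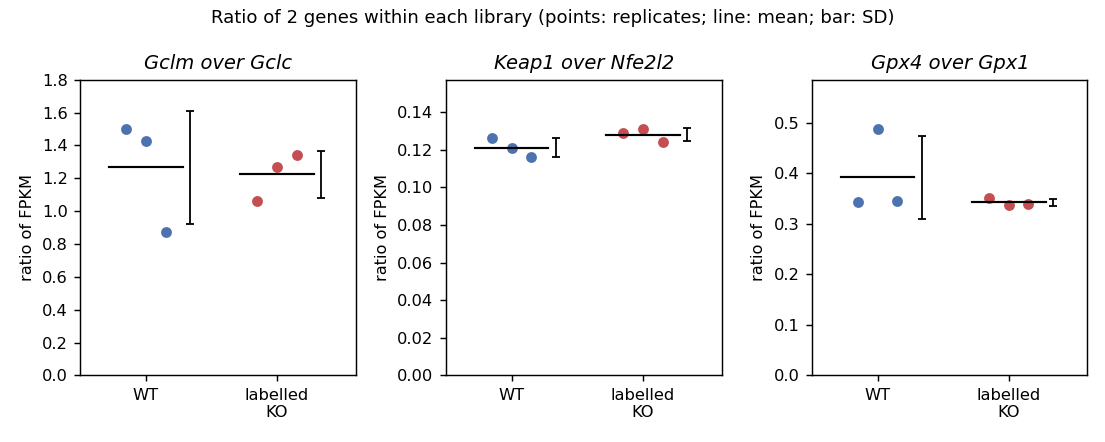
Ratio of the FPKM of 2 genes within each library for Gclm over Gclc, Keap1 over Nfe2l2 and Gpx4 over Gpx1 (points, with the mean as a line and 1 SD as a bar); every axis starts at 0. The groups overlap in each panel, and 1 WT library stands apart for Gclm over Gclc (0.871) and for Gpx4 over Gpx1 (0.488).

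NRF2 binds the antioxidant response element, whose core was searched as TGACNNNGC on both strands of RefSeq promoter windows (GRCm38.p6, 250 bases before to 50 after a transcript start). Windows were found for 8 of the 10 genes, 12 windows in all, and none for Gclc or Gsr. A match stood in 2 of these 12 windows, those of Gclm and Nfe2l2, and in 4071 of 32851 windows of all genes (12.4%). Both are shown because one encodes NRF2 itself and the other a subunit of the first enzyme of synthesis. The match is in capitals and each sequence is written along its gene's strand.
Gclm: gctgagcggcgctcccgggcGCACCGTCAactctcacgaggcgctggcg
Nfe2l2: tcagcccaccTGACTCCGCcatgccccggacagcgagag
The Gclm stretch is chr3:122245403-122245451 on the plus strand, with its match on the opposite strand 134 bases before the start. The Nfe2l2 stretch is chr2:75704875-75704913 on the minus strand, with its match on the same strand 240 bases before the RefSeq start. This RefSeq start lies upstream of the GENCODE M21 gene, whose first base on the minus strand is 75704641. The stretch directly after the RefSeq start could therefore not be found whole in a GENCODE M21 transcript of Nfe2l2. Neither gene was called. Gstm1 and Nqo1, which fell, had no match of these letters in their windows. Sites further from the start were not searched, so a missing match does not show that a gene lacks the element.

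The m6A mark is found most often at GGACT and its variants, so these letters were counted in the longest coding transcript of each gene. Over 12545 tested genes the median was 1.05 sites per kilobase, with quartiles of 0.635 and 1.52. Gss (2.55), Nfe2l2 (2.42), Gstm1 (2.33) and Gpx1 (1.87) lay above the upper quartile. Gsr (0.374), Gclc (0.584) and Gpx4, with 0 sites in 995 bases, lay below the lower one. Keap1 (1.11), Nqo1 (1.29) and Gclm (0.716) lay between. The called genes thus fall in all 3 ranges, and no m6A was measured here.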

How the data were processed

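Poly(A) RNA for 6 macrophage libraries (3 WT, 3 labelled KO) was fragmented and reverse-transcribed, per the labels' protocols. The submitters' processing notes name mm10, HISAT2 2.0.4, cutadapt 1.9 and StringTie 1.3.4d; settings, strand and annotation release: not given in the sources used here. In each library the deposited table holds 2 values per gene: FPKM, which the authors computed, and an estimated count, deposited as whole numbers. Where the count is 0, FPKM is written as 0.0001. Among counts of 1 to 20, 36.9% to 40.4% are multiples of 4 (an even spread gives 25%), so low counts are not tallies of single reads.

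Estimated counts, whole as deposited, were tested with edgeR 4.0.16 in R 4.3.3 (quasi-likelihood, TMM, filterByExpr with minimum count 10 and total 15). Adjusted p-values are Benjamini-Hochberg over 16256 tested genes, and genes were called under 0.05. SEs were derived from F statistics. FPKM is given per library or as mean ± SD. Ratios were tested by exact permutation in scipy 1.17.1. The fit was tested on simulated data.

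The genes and lists were chosen with earlier results of these data known. Named are the 10 genes, up to 4 called genes per list by adjusted p (otherwise the 2 with the highest FPKM), Mettl3, Lyz2, Csf1r and Adgre1; other list genes and overlapping genes were named after their values were seen. For 2 symbols with 2 rows (Dpep2, Nnt) the row with more counts was used. Coordinates are those of the deposited table and equal GENCODE M21 for all 10 genes. Shared 50-base stretches were sought on both strands of GENCODE M21 transcripts. Alternatives were DESeq2 1.42.0, median-of-ratios factors, other filters, a replicate block, limma 3.58.1 on log2(FPKM + 0.1, 1 or 0.01) and each library left out.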

Additional observations from a re-analysis of the deposited data

How the results depend on the processing

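Gsr was called higher and Gstm1 lower under all 15 alternatives run. Nqo1 kept its direction in all of them, but its call was also lost without the filter on low counts in edgeR (adjusted p = 0.0608) or limma (adjusted p = 0.0752) and with the replicate block in edgeR (adjusted p = 0.115). The number of the 10 genes called was 3 in 6 of the 9 other settings, 2 in these 3 and 2 to 3 with 1 library left out. Counts over all genes moved more: 2060 genes were called, 1012 with the replicate block and 1244 to 1339 with 1 library left out, fits that hold fewer samples or fewer degrees of freedom. DESeq2 called 2684, the FPKM filter gave 2247, edgeR and limma without a filter 1661 and 1566, and the other settings 2058 to 2103. For the 98 tested genes of the lists, 26 were called, 31 with DESeq2, 21 without a filter in edgeR or limma, 18 with the block and 20 to 22 with 1 library left out. In the list of NRF2 targets, 12 were called and 7 with the block. No pairing by replicate number was seen: deviations from the group means correlated at 0.00756, -0.0551 and -0.0376 for numbers 1, 2 and 3. Libraries of unlike numbers correlated at -0.075 to 0.109. With 3 libraries per group, these values do not settle whether libraries were prepared in pairs. Log2 fold changes near 0 turned sign when 1 library was left out: Gclc ran from -0.10 to 0.02, Gclm from -0.29 to 0.05, Gpx1 from -0.06 to 0.14 and Scly from -0.05 to 0.03; the cause was not tested. No scaling moved the median log2 fold change of all genes by more than 0.02. The fewest counts of the 10 genes stand behind Nqo1 (77 to 258 per library), whose replicates also vary widely (coefficients of variation of 24.3% in WT and 28.9% in labelled KO); the part of depth in that spread was not tested.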
